A study of Beta vulgaris with 12 samples.

Results

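Cytochrome P450 enzymes (P450s) are haem proteins, mostly anchored in the endoplasmic reticulum, that insert oxygen into small molecules with electrons passed on by NADPH--cytochrome P450 reductase. In plants they make and break hormones such as brassinosteroids, gibberellins and jasmonates, and they build sterols, carotenoids, fatty acid derivatives and a large share of the specialised metabolites, among them flavonoids and the triterpenoids from which the saponins of beets are made. Families are numbered (71, 72), subfamilies carry a letter (71A), and families that descend from 1 ancestor form a clan. A name is a statement on sequence likeness, so that the substrate of most of the enzymes described here is not known from it.

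The genes described here are the 102 of 28320 genes in the deposited table whose description contains the words cytochrome P450. A total of 124 genes have these words, of which 15 of family 86 or subfamily 76AD and a further 7 that the KEGG column places in phenylpropanoid synthesis were not counted as members. This rule uses no expression value, but it was set with earlier results of these data known. Of the 102 members, 100 are P450s and 2 are P450 reductases, which match the words but are redox partners of the enzymes. P450s that the annotation names by their reaction, such as trans-cinnamate 4-monooxygenase, do not match the words and are described separately. The 100 P450s include 1 gene with an insect family name (313a4), and the rest fall into 21 families. Family 71 held 28 members, family 72 held 14, family 94 held 8, and families 78 and 81 held 6 each. Clan 71 as a whole held 61 members.

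RNA was sequenced from the roots of sugar beet seedlings (Beta vulgaris) in 4 groups of 3 libraries, described as biological replicates. CK_1 and CK_7 were control seedlings in nutrient solution without added salt on day 1 and day 7, and S_1 and S_7 were seedlings under salt stress on the same days, at 300 mM Na+ from a mixture of NaCl and Na2SO4. The concentration was raised to that level in steps. All seedlings were of 1 cultivar, KWS0143. Values are FPKM (fragments per kilobase of transcript, relative to all mapped fragments), in which transcript length and library size are already divided out, and which can be compared between genes. In whole roots, a change in the share of a cell type and a change of RNA per cell cannot be told apart. The FPKM of a library summed to between 382847 and 423530, and read depth is not known from such values. Leaf and photosynthesis genes, 29 in all, summed to 83.6 to 469 FPKM in the 6 day 1 libraries and to 16.2 to 41.9 FPKM in the 6 day 7 libraries, with the highest sum in the first S_1 library, and 22 to 28 of the 29 were above 0. The 7 root markers (Casparian strip, SHORT-ROOT, SCARECROW and root meristem genes) summed to 20.2 to 130 FPKM, with 4 to 7 of them above 0 in each library.

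P450 transcripts were a small and fairly even part of the root transcriptome. The 102 members together held 708 to 915 FPKM, or 0.176% to 0.232% of the summed FPKM of a library, and the 2 reductases alone held 36.6% of that sum over all libraries. Of the 102 members, 65 had a mean of at least 1 FPKM over the 12 libraries, 13 of at least 10 FPKM, and 16 of less than 0.1 FPKM. The median of the means was 1.98 FPKM, against 2.1 FPKM for all genes of the table. The most abundant member was the reductase LOC104902412, with a mean of 245 FPKM and a range of 174 to 328 FPKM. It was followed by the brassinosteroid-inactivating P450 734A1 (LOC104904599), with a mean of 69.7 FPKM, and by the other reductase (LOC104905509), with 46.9 FPKM. The next in order were a 71A1-like gene (LOC104899746, 41.5 FPKM), 94B3 (LOC104893484, 35.6 FPKM) and 85A (LOC104906946, 30.2 FPKM), neighbours in that order whose ranges over the libraries overlapped. A 71A4-like gene (LOC104884701) had a mean of 23.3 FPKM and an 83B1-like gene (LOC104887922) one of 14.3 FPKM.

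Detection was uneven at the low end. Of the 102 members, 60 were above 0 in all 12 libraries, whereas 12 were listed at 0 in some library and at 5 FPKM or more in another. Of these 12, 6 were fatty acid hydroxylases of family 94. A case chosen after its values were seen was 94C1 (LOC104900339), an enzyme of jasmonate breakdown in Arabidopsis, which read 29.4, 0 and 0 FPKM in CK_1 and 0, 45.3 and 0 FPKM in S_1, and 0, 0 and 0 FPKM in CK_7 and 0, 0 and 14.5 FPKM in S_7. Such a pattern of 29.4, 45.3 and 14.5 FPKM in single libraries and 0 in the other 9 follows neither salt nor day, and a value of 0 in this table may be a failed estimate. The sterol desaturase 710A1-like (LOC104883528) read 6.0 FPKM in the second CK_1 library, 44.3 FPKM in the third S_1 library and 0 in the other 10. No fold change is given for these 2 genes.

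The question of the design is which genes respond to salt, early and late. A gene was called differentially expressed (a DEG) when it passed an unadjusted P of 0.05 in limma with a change beyond 1 in either direction on the log2 scale. The limma fit is a linear model with a variance shared over genes. All fold changes are differences of log2(FPKM + 1), which understates the change of genes at low FPKM, and are given with their standard error. The adjusted p is Benjamini-Hochberg over all genes tested. Across 4 comparisons, 28 of the 102 members were called at least once and 74 in none. The matching share over all genes was not computed, so this count does not set the members apart. In the plot of shares called, bars are members and black lines all genes of the table.

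**Figure D1:**
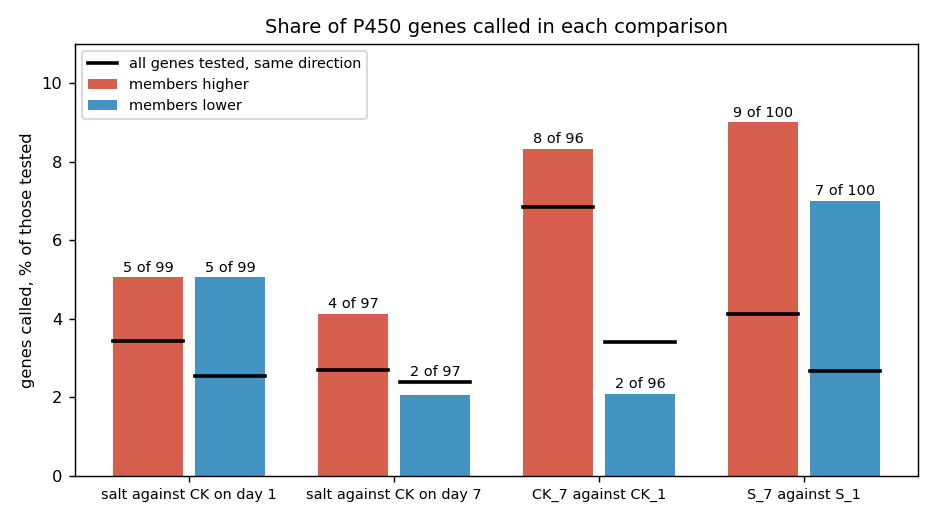
Percentage of tested genes called higher (red) or lower (blue) in each of 4 comparisons, for the members (bars, with counts) and for all genes tested (black lines). The bars stand farthest above the lines for S_7 against S_1, where 9 members were higher and 7 lower of 100 tested.

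On day 1, genes of the 71 and 83 families made up most of the salt calls, in both directions. Of the 99 members tested, 10 were called (10.1%, against 5.99% of all genes), 5 higher (3.44% of all genes were called higher) and 5 lower (2.55% of all genes). None of the 10 had an adjusted p under 0.05 with a log2 fold change beyond 1, a threshold that 0.691% of all genes passed, and 19 members had an unadjusted P under 0.05 in limma (15.6% of all genes). The libraries of S_1 and CK_1 did not overlap for 22 members, or 22.2% (21.8% of all genes). The median log2 fold change was 0.0516 over the members and 0.00087 over all genes.

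The largest increase was that of the 71A26-like gene LOC104884532. It read 0.812, 0.81 and 0.64 FPKM in CK_1 and 8.78, 25.7 and 8.48 FPKM in S_1. All S_1 libraries were far above all CK_1 libraries, and the second S_1 library was the highest. The mean was 19-fold higher, and the log2 fold change was 2.95 ± 0.45 (limma, adjusted p = 0.0618). The 83B1-like gene LOC104887922 read 4.53, 8.25 and 3.64 FPKM in CK_1 and 17.1, 20.9 and 17 FPKM in S_1, without overlap, and rose by 1.64 ± 0.29 (adjusted p = 0.0791). P450 83B1 of Arabidopsis converts aldoximes on the way to glucosinolates. The 71A4-like gene LOC104884700 was low, with 0.142, 0.447 and 0.103 FPKM in CK_1 and 1.95, 2.59 and 2.39 FPKM in S_1. All 3 S_1 libraries lay above the CK_1 libraries, and it rose by 1.43 ± 0.20 (adjusted p = 0.0508). These 3 calls were the ones that held with any 1 library left out.

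A pair of 72A219-like loci that share 1 value (LOC104892483 and LOC104892484) read 0.419, 1.05 and 0.155 FPKM in CK_1 and 2.95, 2.29 and 1.86 FPKM in S_1. Family 72A holds triterpenoid oxidases in legumes. The groups did not overlap, and the value rose by 1.16 ± 0.29 (adjusted p = 0.146). The fifth increase was that of 89A2 (LOC104895333), whose family includes an enzyme of chlorophyll breakdown in Arabidopsis. It read 1.01, 4.97 and 0.922 FPKM in CK_1 and 6.23, 4.41 and 8.54 FPKM in S_1, and the second CK_1 library was above the second S_1 library. The log2 fold change was 1.34 ± 0.52 (adjusted p = 0.30).

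The decreases on day 1 began with the 71A1 gene LOC104903637, at 9.56, 1.63 and 19 FPKM in CK_1 and 0.75, 0.419 and 0.729 FPKM in S_1. Its CK_1 libraries spread widely, but all lay above the S_1 libraries, and it fell by 2.34 ± 0.75 on the log2 scale (adjusted p = 0.224). The 71A3-like gene LOC104884699 read 12.7, 16.3 and 7.34 FPKM in CK_1 and 0.591, 7.02 and 0.359 FPKM in S_1. A single S_1 library, the second, stayed just under the lowest CK_1 library, and the other 2 were near 0, for a log2 fold change of -2.28 ± 0.74 (adjusted p = 0.231). P450 78A3 (LOC104892623), of a family that sets organ size in Arabidopsis, read 1.13, 3.81 and 1.14 FPKM in CK_1 and 0.204, 0.122 and 0 FPKM in S_1. It was close to 0 in all S_1 libraries and fell by 1.34 ± 0.35 on the log2 scale (adjusted p = 0.162).

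A second 83B1-like gene, LOC104887906, went the other way from the first. It read 14.8, 7.7 and 7.62 FPKM in CK_1 and 3.53, 6.51 and 2.32 FPKM in S_1, without overlap, and fell by 1.13 ± 0.40 on the log2 scale (adjusted p = 0.263). The 736A12-like gene LOC104907099 read 6.01, 3.9 and 2.44 FPKM in CK_1 and 2.34, 1.12 and 0.807 FPKM in S_1. The highest S_1 library lay just under the lowest CK_1 library, and the log2 fold change was -1.07 ± 0.39 (adjusted p = 0.273). By family, 3 of the 34 tested members of families 71, 83 and 736 rose and 4 fell.

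The day 1 calls leaned on single libraries. Without the first or second CK_1 library or the third S_1 library the members called lower numbered 2, and without the first or second S_1 library 3. Without the second CK_1 library the members called higher numbered 8. The call of the 72A219-like pair was lost without the third CK_1 library (log2 fold change 0.97) and that of 78A3 without the second (-0.95). For the 71A1 gene limma's P was 0.0574 without the second S_1 library and 0.0622 without the first CK_1 library. For the 71A3-like gene P was 0.0606 to 0.0730 without the first or second CK_1 or the first or the third S_1 library. For the 83B1-like gene LOC104887906 it was 0.0789 to 0.0953 without the first CK_1 or the first or the third S_1 library. The 736A12-like gene gave 0.0717 to 0.105 without the first or second CK_1 or the second or the third S_1 library. For 89A2 it was 0.0523 to 0.123 without the first or the third CK_1 or any S_1 library. In a linear model of the kind Ballgown fits, gene by gene with library size as a covariate, 7 of the 10 calls held, and the 71A3-like gene (P of 0.1085), LOC104887906 (P of 0.112) and the 736A12-like gene (P of 0.085) were not called. The last of these was not called either with all 12 libraries in 1 fit (P of 0.286).

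**Figure D2:**
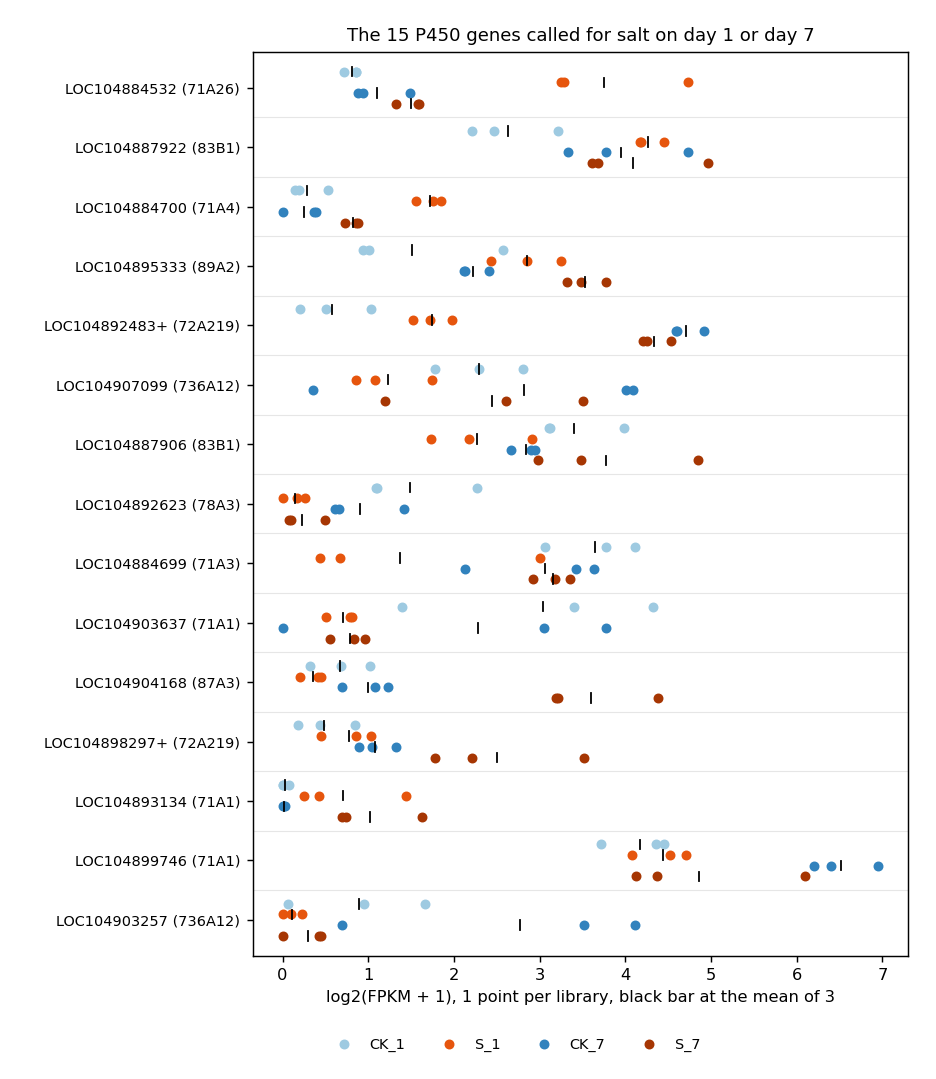
log2(FPKM + 1) of the 15 members called for salt on day 1 or day 7, with 1 point per library, black bars at the mean of 3 libraries, the P450 name in brackets, and + for a value shared by several loci. The 71A26-like gene LOC104884532 stands out in S_1 alone and the 87A3-like gene LOC104904168 in S_7 alone.

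On day 7, an 87A3-like gene and 89A2 were called at the adjusted p as well. Of the 97 members tested, 6 were called (6.19%, against 5.08% of all genes), 4 higher (2.7% of all genes) and 2 lower (2.38% of all genes). With an adjusted p under 0.05, 2 were called (1.3% of all genes), and 25 members had an unadjusted P under 0.05 in limma (18.9% of all genes). The groups did not overlap for 29 members, or 29.9% (26.4% of all genes). The median log2 fold change was 0.0181 over the members and 0.019 over all genes.

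The 87A3-like gene LOC104904168 read 1.11, 0.624 and 1.35 FPKM in CK_7 and 8.26, 8.1 and 19.9 FPKM in S_7. All S_7 libraries lay far above the other 9 of the series. The mean was 11.8-fold higher in S_7, and the log2 fold change was 2.59 ± 0.39 (limma, adjusted p = 0.0476). Family 87 holds triterpenoid oxidases in other species. The 89A2 gene LOC104895333 read 3.38, 3.34 and 4.31 FPKM in CK_7 and 8.99, 10.2 and 12.7 FPKM in S_7, with no overlap and little spread, and it rose by 1.31 ± 0.17 (adjusted p = 0.038). Both calls held under each of the 14 alternatives run for them.

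A further pair of 72A219-like loci with 1 value (LOC104898297 and LOC104898294) read 0.853, 1.06 and 1.5 FPKM in CK_7 and 3.62, 2.43 and 10.5 FPKM in S_7. The third S_7 library was by far the highest, and the value rose by 1.42 ± 0.48 (adjusted p = 0.21). The 71A1-like gene LOC104893134 was nearly silent in controls, at 0.0121, 0 and 0.0203 FPKM in CK_7 and 0.621, 0.678 and 2.09 FPKM in S_7. All S_7 libraries lay above the CK_7 libraries, and the log2 fold change was 1.01 ± 0.26 (adjusted p = 0.134).

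The 71A1-like gene LOC104899746, one of the most abundant members, fell on day 7. It read 72.6, 83.3 and 122.7 FPKM in CK_7 and 19.7, 67.3 and 16.5 FPKM in S_7. The second S_7 library stayed close to the CK_7 libraries while the other 2 were lower, and the log2 fold change was -1.65 ± 0.56 (adjusted p = 0.21). The 736A12-like gene LOC104903257 read 0.619, 10.4 and 16.3 FPKM in CK_7 and 0, 0.346 and 0.366 FPKM in S_7. The first CK_7 library was close to the S_7 libraries, and the log2 fold change was -2.48 ± 0.92 (adjusted p = 0.236).

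Both decreases were lost without the second or the third CK_7 library or the first or the third S_7 library. No member was called lower without the second CK_7, the first S_7 or the third S_7 library, and 1 without the second S_7 library. P for LOC104899746 was 0.0605 to 0.0879 without any 1 of these 4 libraries. For LOC104903257 it was 0.0775 to 0.107 without any single library but the first of CK_7. The 72A219-like pair gave P of 0.0503 to 0.0788 without any CK_7 library and a log2 fold change of 0.91 without the third S_7 library, and the 71A1-like gene LOC104893134 one of 0.71 without the third S_7 library. In the Ballgown-type model 2 of the 6 calls held, those of the 87A3-like gene and 89A2. There the other 4 had P of 0.0997 to 0.2245. LOC104893134 was also just under the size needed after median ratio scaling (log2 fold change 0.99).

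A gene outside the calls, 78A9 (LOC104905659), was looked at after its values were seen because its day 7 difference was the largest of any member. It read 0.498, 24.6 and 33 FPKM in CK_7 and 0.32, 0.754 and 0.348 FPKM in S_7, and 20.02, 0.0577 and 0.19 FPKM in CK_1 and 10.9, 0.0546 and 18.7 FPKM in S_1. The gene was near 0 or above 10 FPKM from library to library in CK_1, S_1 and CK_7, and the first CK_7 library lay within the S_7 range. Its log2 fold change was -2.90 ± 1.23 (limma, adjusted p = 0.29), so the difference did not pass the test.

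**Figure D3:**
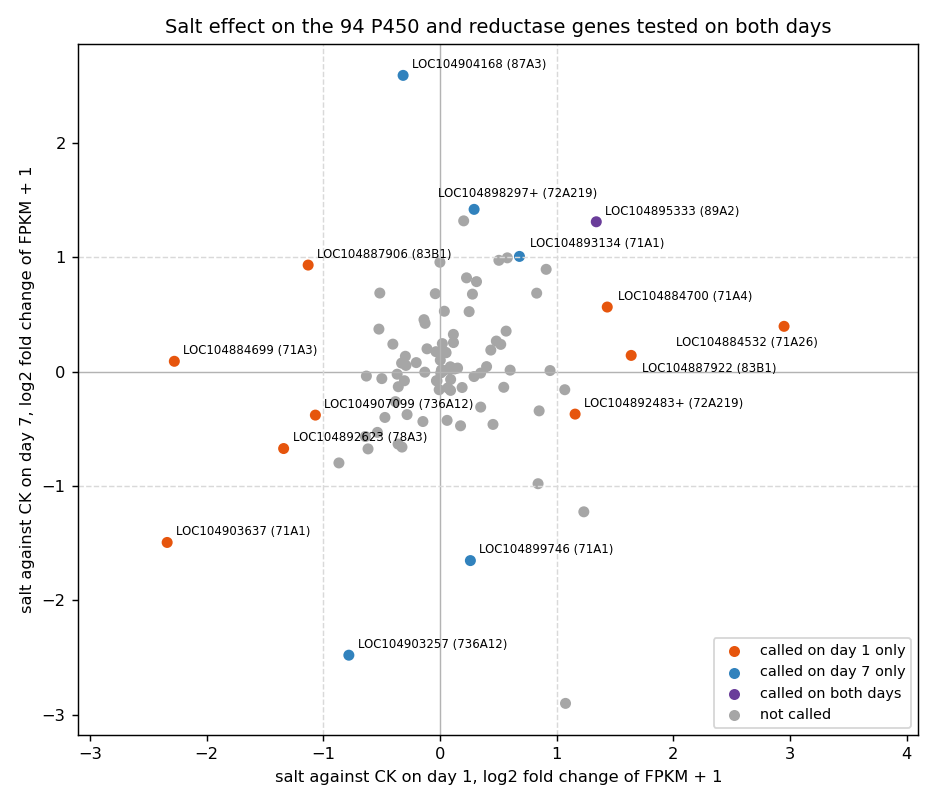
log2 fold change of FPKM + 1, salt against CK, on day 1 (x axis) and day 7 (y axis) for the 94 members tested on both days, coloured by the day on which they were called, with dashed lines at 1 and -1. Most called genes lie near an axis, and 89A2 alone is called on both days.

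The salt calls of the 2 days had a single member in common. Of 15 members called on either day, 1 was called on both, namely 89A2. The matching count over all genes was not made. At low FPKM, the size needed also decides what is called on both days. The 71A4-like gene LOC104884700 rose on day 7 as well, by 0.56 ± 0.13 (limma, P of 0.00618). P450 78A3 (LOC104892623) was again lower, at -0.67 ± 0.26 (P of 0.0439). The 72A219-like pair LOC104892483 and LOC104892484 went the other way from day 1, at -0.37 ± 0.14 (P of 0.0447). In all of these the groups did not overlap. Over the 94 members tested on both days, 59 had a log2 fold change of the same sign and Pearson's r was 0.168, close to the 0.155 over the 26164 genes tested on both days. These are correlations across genes, which are not independent, and the 2 days share no library.

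A difference between the days was tested itself, as the interaction of salt and day over the 12 libraries. With an adjusted p under 0.05, 3 of 102 members passed (2.94%, against 1.76% of all genes), 1 with a higher salt effect on day 7 (0.826% of all genes) and 2 with a lower one (0.936% of all genes). The 87A3-like gene LOC104904168 had a salt effect of -0.32 on day 1 and 2.59 on day 7, a difference of 2.91 ± 0.48 (adjusted p = 0.0204). For the 71A26-like gene LOC104884532 the effect was 2.95 on day 1 and 0.40 on day 7, where it read 0.913, 0.845 and 1.81 FPKM in CK_7 and 2.0, 1.5 and 2.02 FPKM in S_7, a difference of -2.55 ± 0.53 (adjusted p = 0.0464). The 72A219-like pair LOC104892483 and LOC104892484 went from 1.16 to -0.37, a difference of -1.53 ± 0.31 (adjusted p = 0.0457). The call of the 87A3-like gene held under all 19 alternatives run. The other 2 calls ended when most single libraries were left out, with an adjusted p of 0.0507 to 0.109 for the 71A26-like gene (all but the second and the third S_1 libraries) and 0.0602 to 0.110 for the 72A219-like pair (all but the second CK_1 library). Of these 2 calls, neither was left without the first or the third CK_1, the first S_1, any CK_7 or any S_7 library, and 1 was left without the second CK_1, the second S_1 or the third S_1 library. The 71A26-like gene was not called in the Ballgown-type model (adjusted p = 0.0855), nor the pair with a pseudocount of 0.1 (adjusted p = 0.0815). Without the second S_1 library, 2 members were called higher. At an unadjusted P under 0.05 and a size above 1, 9 members passed (7.21% of all genes).

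The comparison of the days shows how the P450 profile of the root moved over a week, in control and in salt. The leaf and photosynthesis markers given above were higher in every day 1 library than in any day 7 library, and their part in these differences was not tested. In the controls, 10 of 96 members were called (10.4%, against 10.2% of all genes), 8 higher on day 7 (6.85% of all genes) and 2 lower (3.4% of all genes). With an adjusted p under 0.05 these were 6 and 0, the share of all genes being 5.63% in either direction. In salt, 16 of 100 members were called (16%, against 6.78% of all genes), 9 higher (4.11%) and 7 lower (2.66%), and 10 passed with an adjusted p (2.01% of all genes). The salt and control comparisons have no library in common, and 5 members were called in both. The same count over all genes was not made, so this number does not set the members apart. The libraries of the days did not overlap for 27.1% of the members in CK and 33% in salt (32.6% and 30.6% of all genes). The median log2 fold change over the members was 0.0211 in CK and 0.079 in salt (0.0452 and 0.0853 over all genes).

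Some P450s of the 72A219-like type rose from day 1 to day 7 in both conditions, with the largest rise of any called member in CK. The pair LOC104892483 and LOC104892484 read 0.419, 1.05 and 0.155 FPKM in CK_1 and 23.1, 29.2 and 23.3 FPKM in CK_7, a 46.7-fold higher mean. The log2 fold change was 4.12 ± 0.26 in CK (limma, adjusted p = 0.00398) and 2.59 ± 0.18 in salt (adjusted p = 0.0118), where S_7 libraries held 18.1, 17.5 and 22.1 FPKM. All 6 day 7 libraries lay above all 6 day 1 libraries.

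The 72A219-like gene LOC104884341 read 0.262, 0.837 and 0.014 FPKM in CK_1 and 7.15, 9.29 and 20.4 FPKM in CK_7, and 1.03, 0.356 and 0.264 FPKM in S_1 and 9.17, 6.69 and 16.2 FPKM in S_7. It rose by 3.19 ± 0.45 in CK (adjusted p = 0.0199) and by 2.87 ± 0.38 in salt (adjusted p = 0.0345), again with no overlap of the days. Its salt effect was small on both days, 0.19 on day 1 and -0.14 on day 7. LOC104892481 of the same type read 0.0705, 0.0535 and 0.00979 FPKM in CK_1 and 3.35, 5.46 and 3.47 FPKM in CK_7, and 0.508, 0.296 and 0.202 FPKM in S_1 and 2.49, 2.87 and 3.89 FPKM in S_7. The rise was 2.26 ± 0.23 in CK (adjusted p = 0.0106) and 1.60 ± 0.21 in salt (adjusted p = 0.0345). LOC104884348 read 0.0894, 0.105 and 0.0554 FPKM in S_1 and 3.48, 1.75 and 5.04 FPKM in S_7, with 1.47, 2.78 and 3.81 FPKM in CK_7, and rose by 1.96 ± 0.31 in salt (adjusted p = 0.0455) and 1.73 ± 0.27 in CK (adjusted p = 0.0252). In the Ballgown-type model the CK calls of these 3 genes held and the salt calls did not, with log2 fold changes in salt of 1.41 for LOC104884341 (P of 0.2185), 1.17 for LOC104892481 (P of 0.0924) and 1.32 for LOC104884348 (P of 0.269).

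A called gene of the same family moved against these. The 72A219 gene LOC104907332 read 4.07, 3.46 and 10.1 FPKM in CK_1 and 0.852, 1.72 and 1.62 FPKM in CK_7, and 12.5, 9.82 and 10.4 FPKM in S_1 and 3.24, 3.05 and 3.95 FPKM in S_7. Day 7 libraries were lower in both conditions without overlap. It fell by 1.41 ± 0.42 on the log2 scale in CK (adjusted p = 0.101) and by 1.43 ± 0.16 in salt (adjusted p = 0.0274). The 72A219-like gene LOC104899518, named after its values were seen, was also lower on day 7 but not called. It read 9.18, 7.94 and 7 FPKM in S_1 and 5.3, 3.44 and 3.94 FPKM in S_7. In CK its log2 fold change was -0.47 ± 0.21, with overlapping groups. LOC104894235, named likewise, had a mean of 2.69 FPKM in both CK groups. Of the 16 members in the families with triterpenoid oxidases in other species (72A and 87), 4 were called higher and 1 lower in CK. Among the 15 tested in salt, 6 were called higher and 1 lower. Over all genes, 6.85% were called higher and 3.4% lower in CK, and 4.11% and 2.66% in salt. The list was chosen with earlier results of these data known. Of the 6 rises in salt, that of the pair LOC104892483 and LOC104892484 alone held in the Ballgown-type model.

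**Figure D4:**
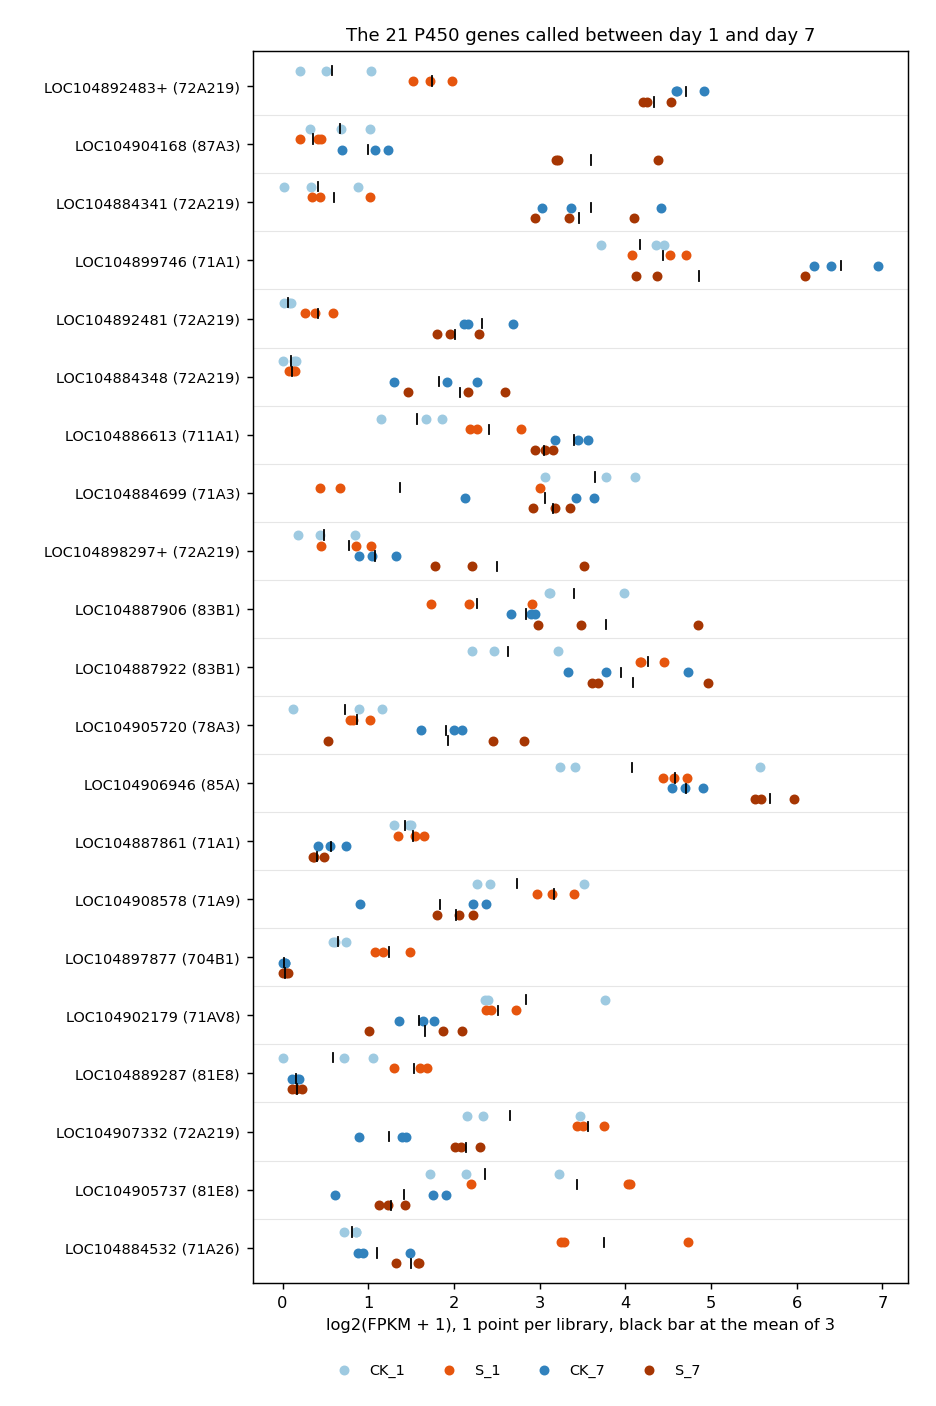
log2(FPKM + 1) of the 21 members called between day 1 and day 7 in CK or in salt, ordered by their largest log2 fold change, with 1 point per library and black bars at the mean of 3. Points of both day 7 groups lie to the right of both day 1 groups for the 72A219-like genes LOC104892483+, LOC104884341, LOC104892481 and LOC104884348.

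Among other families, the 71A1-like gene LOC104899746 read 19.5, 12.1 and 21 FPKM in CK_1 and 72.6, 83.3 and 122.7 FPKM in CK_7 and rose by 2.34 ± 0.29 (adjusted p = 0.0155). In salt it read 15.9, 25.1 and 21.9 FPKM on day 1 and 19.7, 67.3 and 16.5 FPKM on day 7, a log2 difference of 0.43 ± 0.55 that did not pass (adjusted p = 0.676). The 711A1 gene LOC104886613, named after MAX1 of Arabidopsis, an enzyme of strigolactone synthesis, read 1.22, 2.2 and 2.64 FPKM in CK_1 and 9.96, 8.04 and 10.8 FPKM in CK_7. It rose by 1.83 ± 0.26 in CK (adjusted p = 0.0196), and S_1 libraries, at 3.84, 5.86 and 3.57 FPKM, all lay above the CK_1 libraries with a log2 fold change of 0.85 ± 0.31 that did not reach the threshold.

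The 87A3-like gene LOC104904168 rose by 3.24 ± 0.38 from S_1 to S_7 (adjusted p = 0.0279), against 0.33 ± 0.24 in CK (adjusted p = 0.456). The rise in salt was 2.80 in the Ballgown-type model and was not called there (P of 0.112). P450 85A (LOC104906946), which makes the last steps of brassinosteroid synthesis, read 25.3, 20.7 and 22.8 FPKM in S_1 and 61.7, 44.6 and 46.9 FPKM in S_7 without overlap. It rose by 1.11 ± 0.16 (adjusted p = 0.0405). The 71A26-like gene LOC104884532 was lower again in S_7 than in S_1 and fell by 2.26 ± 0.44 on the log2 scale (adjusted p = 0.0624).

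A pair of 81E8-like genes, from a subfamily with isoflavone hydroxylases in legumes, were lower on day 7 in salt. LOC104889287 read 2.22, 1.46 and 2.04 FPKM in S_1 and 0.0797, 0.113 and 0.174 FPKM in S_7 and fell by 1.37 ± 0.15 on the log2 scale (adjusted p = 0.027). LOC104905737 read 15.6, 15.4 and 3.6 FPKM in S_1 and 1.36, 1.18 and 1.68 FPKM in S_7 and fell by 2.17 ± 0.54 (adjusted p = 0.0928). Neither gene was called in CK, where LOC104889287 had a log2 fold change of -0.43 ± 0.26 and LOC104905737 of -0.94 ± 0.54, and the difference between the conditions did not pass the interaction test for either (adjusted p = 0.203 and 0.548). The 71AV8-like gene LOC104902179, named after a sesquiterpene oxidase of chicory, was lower on day 7 in CK, at 4.13, 12.6 and 4.26 FPKM in CK_1 and 2.39, 2.12 and 1.57 FPKM in CK_7, with a log2 fold change of -1.25 ± 0.43 (adjusted p = 0.143).

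The remaining calls between the days fall outside the rule by which genes were chosen for naming and were named after their values were seen. In CK these were the 83B1-like gene LOC104887922 (1.31 ± 0.44) and the 78A3-like gene LOC104905720 (1.18 ± 0.34), both higher on day 7. In salt, the 72A219-like pair LOC104898297 and LOC104898294 (1.72 ± 0.50), the 71A3-like gene LOC104884699 (1.78 ± 0.71) and the 83B1-like gene LOC104887906 (1.50 ± 0.56) were higher. P450 704B1 (LOC104897877), whose Arabidopsis counterpart hydroxylates fatty acids for the pollen wall, was lower in salt (-1.21 ± 0.13). It read 1.12, 1.79 and 1.26 FPKM in S_1 and 0.0427, 0.025 and 0 FPKM in S_7, and all 6 day 7 libraries were under 0.05 FPKM. In CK it read 0.672, 0.503 and 0.527 FPKM on day 1 and 0.0187, 0 and 0.0212 FPKM on day 7. Without overlap, it fell there by 0.63 ± 0.06 on the log2 scale (limma, adjusted p = 0.0106), under the size needed for a call. The 71A9-like gene LOC104908578 (-1.14 ± 0.20) and the 71A1-like gene LOC104887861 (-1.11 ± 0.15) were lower in salt as well. In CK, LOC104887861 read 1.47, 1.79 and 1.83 FPKM on day 1 and 0.666, 0.334 and 0.467 FPKM on day 7, without overlap and without a call. LOC104908578 had -0.90 ± 0.54 there, with overlapping groups.

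Between the days, 6 of 10 calls in CK and 13 of 16 in salt held with any 1 library left out. In the Ballgown-type model 7 of 10 held in CK and 4 of 16 in salt. Those that held in salt were the pair LOC104892483 and LOC104892484, LOC104907332, LOC104889287 and LOC104887861, and those lost in CK were LOC104907332, LOC104905720 and LOC104887922. In CK, no member was called lower without the first CK_7 library, and 1 without the second CK_1 or the second or the third CK_7 library. For LOC104907332 limma's P was 0.0509 without the first CK_7 library. LOC104902179 had P of 0.0544 to 0.0826 without any single CK_7 library and a log2 fold change of -0.79 without the second CK_1 library. LOC104905720 gave 0.88 without the third CK_1 library. P450 83B1-like LOC104887922 was lost without the first or the third CK_1 or the third CK_7 library (log2 fold change 0.92 to 1.23, P of 0.0592 to 0.0808). In salt, LOC104884699 was lost without the first or the third S_1 or any S_7 library (P of 0.0865 to 0.138) and LOC104887906 without the first or the third S_1 or the second or the third S_7 library (P of 0.0630 to 0.114). P450 85A was lost without the first S_7 library (log2 fold change 0.97) and with all 12 libraries in 1 fit (P of 0.05265). Dividing each library by its median ratio shifted the median of all genes by -0.16 on the log2 scale for S_7 against S_1. Relative to that shift the split was 6 higher and 11 lower, and 85A, LOC104884699 and LOC104887906 kept their direction and were not called.

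**Figure D5:**
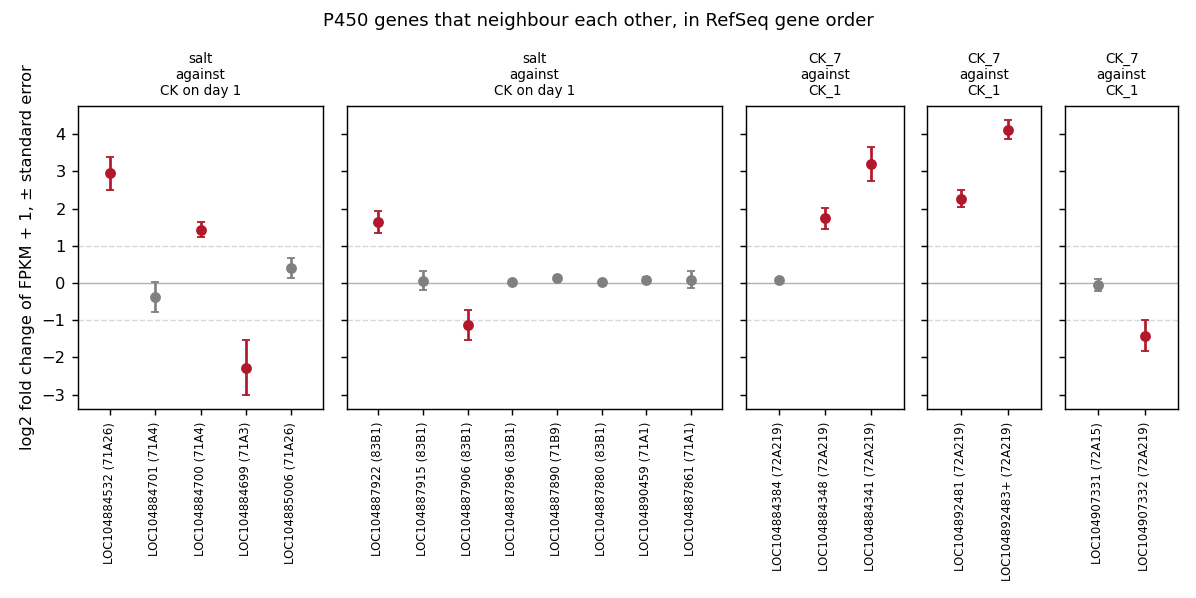
log2 fold change of FPKM + 1 with its standard error for 5 sets of members that neighbour each other, in the gene order of RefSeq assembly EL10.2, with called genes in red and dashed lines at 1 and -1. Members of a set differ in direction in the sets with LOC104884532 and LOC104887922, and LOC104884348 and LOC104884341 rise together.

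Many of the members stand close together in the genome. Of the 102 members, 98 were found by locus name in the RefSeq annotation of assembly EL10.2, and 49 of them stood in 16 sets. In a set, each member was at most 5 places from the next in the order of protein-coding genes. Other genes can lie between such neighbours. The order comes from that assembly, which may not be the one the reads were aligned to, so no positions are given. Neighbours of called genes are named below for their place near them. Paralogues in such sets can share reads, and the value of a member close to a near-identical copy is uncertain for that reason. A total of 6 members carry 1 value for several loci.

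Neighbours differed in level and in the response to salt on day 1 in the sets with LOC104884532 and LOC104887922. In the set of 5 that runs from LOC104884532 to LOC104885006, the 71A26-like LOC104884532 and the 71A4-like LOC104884700 rose with salt on day 1. The 71A3-like LOC104884699 fell. The 71A4-like LOC104884701, with the highest mean of the set (23.3 FPKM), had a log2 fold change of -0.38 ± 0.40, and the 71A26-like LOC104885006 one of 0.40 ± 0.28. In the set of 8 with the 83B1-like genes, LOC104887922 rose, LOC104887906 fell, and the 83B1-like gene between them, LOC104887915, had a log2 fold change of 0.06 ± 0.26 at a mean of 0.707 FPKM. The falls of LOC104884699 and LOC104887906 were not called in the Ballgown-type model or without some single libraries, as given above.

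Rises from day 1 to day 7 occurred in neighbouring genes of the 72A219-like type. LOC104892481 and the pair LOC104892483 and LOC104892484 are neighbours, and so are LOC104884348 and LOC104884341. The next gene in the latter set, LOC104884384, stayed at a mean of 0.116 FPKM, with a log2 fold change of 0.09 ± 0.04 in CK. Near LOC104907332, which fell, the 72A15 gene LOC104907331 had a mean of 13.2 FPKM (-0.05 ± 0.17 in CK, 0.17 ± 0.23 in salt). Another large set, of 8 members of subfamily 71A (LOC104908588 to LOC104908576), gave a single call in the 4 comparisons, that of LOC104908578 in salt.

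P450s of hormone metabolism gave no call for salt among the members of 2 pathways. None of the 6 brassinosteroid members was called on either day, nor either gibberellin member. With 5.99% of all genes called on day 1 and 5.08% on day 7, lists this small do not set these pathways apart. P450s that the annotation names by reaction are not members, and calls among them are given below. P450 85A read 24.9, 29 and 22.3 FPKM in CK_7 and 61.7, 44.6 and 46.9 FPKM in S_7, a 2.01-fold higher mean without overlap. Its log2 fold change of 0.97 ± 0.17 was just under the threshold (adjusted p = 0.0627). P450 90A1 (LOC104903459), an earlier enzyme of the same pathway, read 10.2, 12.5 and 11.2 FPKM in CK_7 and 6.92, 6.97 and 6.78 FPKM in S_7, all lower in salt, with a log2 fold change of -0.63 ± 0.11 (adjusted p = 0.0658). P450 90B1 (LOC104895859), which begins the pathway by hydroxylating the sterol side chain, had -0.20 ± 0.40 on day 1 and 0.08 ± 0.21 on day 7.

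Enzymes of family 734 inactivate brassinosteroids. The abundant 734A1 (LOC104904599) had log2 fold changes of -0.40 ± 0.36 on day 1 and 0.24 ± 0.22 on day 7, with overlapping groups. The 734A1-like gene LOC104902103 was lower in every salt library than in any control library of its day. It read 1.9, 2.41 and 1.84 FPKM in CK_1 and 0.983, 1.03 and 0.841 FPKM in S_1, and 1.72, 2.07 and 1.67 FPKM in CK_7 and 1.15, 0.835 and 0.738 FPKM in S_7. The log2 fold changes, -0.64 ± 0.21 and -0.57 ± 0.17, were under the size needed for a call, while the mean FPKM was 2.15-fold and 2.01-fold lower. P450 734A6 (LOC104884621) had 0.83 ± 0.40 on day 1 and 0.69 ± 0.25 on day 7. The gibberellin genes 714A1-like (LOC104887132) and 714C2 (LOC104905244), from a family that inactivates gibberellins in rice, had -0.52 ± 0.28 and 0.28 ± 0.30 on day 1, and 0.37 ± 0.29 and 0.68 ± 0.23 on day 7.

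Of the 13 jasmonate and fatty acid hydroxylases, none was called for salt on either day and none in CK between the days. Over all genes, 5.99% were called for salt on day 1, 5.08% on day 7 and 10.2% in CK between the days. The fall of 704B1 in CK, given above, was under the size needed for a call. P450 94B3 (LOC104893484), which in Arabidopsis hydroxylates the active jasmonate jasmonoyl-isoleucine, read 26, 19.6 and 38.9 FPKM in CK_1 and 45, 49.2 and 54 FPKM in S_1. All S_1 libraries lay above the CK_1 libraries, at a log2 fold change of 0.84 ± 0.26 that did not reach the threshold (adjusted p = 0.218). On day 7 it read 42.4, 31.4 and 35.4 FPKM in CK_7 and 2.73, 45 and 37.9 FPKM in S_7, and the first S_7 library was far below the other 11 of the series. The neighbours 704C1-like (LOC104905450) and 704C1 (LOC104905452), named after their values were seen, were present in all libraries, with means of 12.6 and 8.28 FPKM.

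The carotenoid and strigolactone members gave no call for salt. P450 97B2 (LOC104895377), from a family with carotenoid ring hydroxylases, read 4.35, 5.7 and 3.66 FPKM in CK_1 and 3.42, 2.75 and 3.69 FPKM in S_1, and had log2 fold changes of -0.37 ± 0.24 on day 1 and -0.02 ± 0.16 on day 7. P450 711A1 read 9.96, 8.04 and 10.8 FPKM in CK_7 and 7.35, 7.89 and 6.73 FPKM in S_7, lower in all salt libraries, with a log2 fold change of -0.34 ± 0.14, and the difference of its salt effect between the days did not pass the adjusted p (-1.19 ± 0.32, adjusted p = 0.108). None of the 6 members of family 81, of the 4 of family 82 or of the 2 of family 76 was called for salt. With 5.99% of all genes called on day 1 and 5.08% on day 7, lists this small are not set apart. The 82D47-like value shared by LOC104900558, LOC104900562 and LOC104900561, named after it was seen, rose by 0.82 ± 0.15 on day 7 (limma, adjusted p = 0.0716). The 81E8-like LOC104889287 rose by 0.94 ± 0.32 on day 1 (adjusted p = 0.245). Both rises were without overlap, and members of these families that fell had overlapping groups.

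Neither P450 reductase gave a call for salt. The reductase LOC104902412 read 294, 174 and 284 FPKM in CK_1 and 277, 294 and 215 FPKM in S_1, and 247, 216 and 243 FPKM in CK_7 and 328, 185 and 185 FPKM in S_7. Its groups overlapped on both days, with log2 fold changes of 0.09 ± 0.31 and -0.07 ± 0.27. The reductase LOC104905509 read 51.5, 84.3 and 58.4 FPKM in CK_1 and 41.7, 43.9 and 48.1 FPKM in S_1. All S_1 libraries were below the CK_1 libraries, and the log2 fold change was -0.50 ± 0.22 (adjusted p = 0.348), against -0.06 ± 0.18 on day 7. Cytochrome b5, a protein that also hands electrons to P450s, brought 2 calls for salt on day 7 and 1 on day 1 in a list of 12 redox genes that includes both reductases. Of all genes, 5.08% were called on day 7 and 5.99% on day 1. The cytochrome b5 gene LOC104899505 read 3.08, 5.89 and 3.42 FPKM in CK_1 and 8.95, 12 and 19.5 FPKM in S_1, and 4.76, 3.68 and 4.17 FPKM in CK_7 and 9.19, 13 and 7.65 FPKM in S_7. It rose by 1.47 ± 0.35 on day 1 (adjusted p = 0.131) and by 1.05 ± 0.21 on day 7 (adjusted p = 0.0858), without overlap on either day. Another, LOC104888173, fell by 1.02 ± 0.37 on the log2 scale on day 7 (adjusted p = 0.233).

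Among 51 P450 genes that the annotation names by reaction, 2 rose and 5 fell of 48 tested on day 1, and 2 rose and 2 fell of 47 tested on day 7, beside the shares of all genes given above. Of the 5 decreases, 1 is a single value joined for LOC104900369 and LOC104900367. Together these loci are described as an FLX-like gene and a brassinosteroid synthesis P450. The isoflavone 2'-hydroxylase-like gene LOC104908488 read 29.6, 23.2 and 26.2 FPKM in CK_1 and 75.5, 127 and 92.7 FPKM in S_1 and rose by 1.83 ± 0.23 (adjusted p = 0.0446). The abscisic acid 8'-hydroxylase 1-like gene LOC104892458, an enzyme that breaks down the stress hormone, read 392, 206 and 304 FPKM in CK_7 and 20.1, 81.9 and 58.4 FPKM in S_7. It was lower in all salt libraries and fell by 2.63 ± 0.56 on the log2 scale on day 7 (adjusted p = 0.0927). On day 1 it fell by 1.08 ± 0.37 (adjusted p = 0.253). In the opposite direction, abscisic acid 8'-hydroxylase 2 (LOC104900082) read 4.15, 3.47 and 2.93 FPKM in CK_7 and 10.8, 9.02 and 10.6 FPKM in S_7 and rose by 1.31 ± 0.16 (adjusted p = 0.030). A cytokinin hydroxylase gene (LOC104888632), of the enzymes that make trans-zeatin, fell by 2.69 ± 0.76 on day 1 (adjusted p = 0.181) and by 2.33 ± 0.45 on day 7 (adjusted p = 0.078). The ent-kaurenoic acid oxidase 2-like gene LOC104892989 read 0.619, 0.24 and 0.997 FPKM in CK_7 and 4.31, 2.39 and 15 FPKM in S_7. It rose by 2.06 ± 0.61 on day 7 (limma, adjusted p = 0.167). These genes were chosen for naming after their values were seen.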

How the data were processed

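The authors extracted total RNA from seedling roots, sequenced polyadenylated RNA as read pairs, aligned reads with HISAT and assembled and quantified transcripts with StringTie. The submitters' processing notes list HISAT2 2.0, StringTie 1.3.0 and Bowtie 0.12.2, and a mouse genome build that cannot be the one of this plant. They deposited FPKM, 1 value per gene and library, which carry no read counts. All 12 libraries were used, grouped by their labels.

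Differences were computed with limma 3.58.1 (R 4.3.3) on log2(FPKM + 1), with trend, over all genes above 0 in at least 1 of the 6 libraries compared, and over 12 libraries for the interaction. Members and role lists were chosen with earlier results of these data known. The genes named are, by rule, called members without overlap of the groups (up to 12 increases and 8 decreases for salt on each day, and up to 4 of each between the days), members of the interaction, the 8 with the highest mean FPKM, LOC104895333, and the hormone, sterol, carotenoid and redox lists. Genes named beyond this rule are marked as such. Alternatives were an adjusted p, a pseudocount of 0.1, a mean FPKM of at least 1, median ratio scaling, a linear model of the kind Ballgown fits (rewritten in R), all 12 libraries in 1 fit, removal of genes listed at 0 and at 20 FPKM or more, a block for the replicate number, and leaving out libraries singly. The fits were tested on simulated data. With 3 libraries against 3, an exact permutation test could not go below 0.1, so none was run. Sequences of the members were not used here.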

Additional observations from a re-analysis of the deposited data

Results flagged for a closer look

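For 3 members the salt effect differed between the days by the interaction test (limma, adjusted over all genes). The 87A3-like gene LOC104904168 had a salt effect 2.91 higher on day 7 on the log2 scale (adjusted p = 0.0204), and its 3 S_7 libraries lay above all other libraries. The 72A219-like pair LOC104892483;LOC104892484 had a salt effect 1.53 lower on day 7, or -1.53 (adjusted p = 0.0457), higher in salt in 3 of 3 libraries on day 1 and lower in 3 of 3 on day 7. The 71A26-like gene LOC104884532 had a difference of -2.55 (adjusted p = 0.0464), and its 3 S_1 libraries lay above all other libraries. The call of the 87A3-like gene held under all 19 alternatives run. That of the 71A26-like gene held under 7 of 19, and that of the 72A219-like pair under 6 of 19.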

How the results depend on the processing

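No called gene changed sign under any alternative run. With an adjusted p under 0.05, the members called were 0 higher and 0 lower for salt on day 1, 2 and 0 on day 7, 0 lower in CK_7 against CK_1, and 4 lower in S_7 against S_1. A pseudocount of 0.1 gave 11 higher and 8 lower on day 1, 8 higher on day 7, 5 lower in CK_7 against CK_1 and 1 lower for the interaction. The Ballgown-type model gave 2 lower on day 1, 2 higher and 0 lower on day 7, 8 lower in CK_7 against CK_1, 1 higher in S_7 against S_1 and 1 lower for the interaction. Median ratio scaling gave 11 lower in S_7 against S_1. The interaction at an unadjusted P and a size above 1 gave 4 higher and 5 lower. With 1 library left out, counts ranged from 5 to 8 higher and 2 to 5 lower on day 1, 3 to 5 higher and 0 to 3 lower on day 7, 7 to 12 higher and 0 to 2 lower in CK_7 against CK_1, 8 to 10 higher and 7 to 8 lower in S_7 against S_1, and 1 to 2 higher and 0 to 2 lower for the interaction. Same-numbered libraries did not deviate together (correlations of -0.0916 to 0.103), so the numbers were not taken as pairs. With the replicate block, no member was called lower for the interaction. The cause of these changes was not tested. FPKM carry no read depth, so differences among members under 1 FPKM rest on few reads whose number is not known.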
